A study of Homo sapiens with 14 samples.

Results

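The genome-wide binding of the SS18::SSX fusion protein was compared between 48 h and 24 h of the BRD9 degrader WA-68, as lists of called peaks from chromatin immunoprecipitation sequencing (ChIP-seq). The 48 h list held 26405 regions and the 24 h list 24846, on chromosomes 1 to 22, X and Y, once entries with the same coordinates had been joined. A region was classed as shared when it overlapped a region of the other list by at least 1 bp, and otherwise as 48 h only or 24 h only. The 2 libraries were part of 14 in the study, 9 of which had a peak list.

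All libraries came from the synovial sarcoma line HS-SY-II, whose genotype the labels give as WT. The 48 h group was fusion ChIP with an anti-HA antibody after 48 h of 100 nM WA-68, a PROTAC that directs BRD9 to degradation. The 24 h group was the same ChIP after 24 h of 100 nM WA-68. Fusion ChIP after 12 h of 100 nM WA-68, fusion ChIP after DMSO vehicle and GLTSCR1 ChIP after DMSO, 24 h and 48 h were used to describe the classes. No time is labelled for the DMSO cells, and how the HA tag was introduced is not given in the sources used here. With 1 library per group the times could not be tested against each other, and the text holds no p-value. Ranges in brackets are exact 95% limits by the Clopper-Pearson method. They speak for counting error alone, not for differences between cultures, and neighbouring regions are not independent. Peak lists do not give read depth, and a region that a list lacks may have been bound below the calling threshold.

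SS18::SSX arises when the SS18 gene, which encodes a subunit of BAF chromatin remodelling complexes, is joined to an SSX gene, and it is the defining oncoprotein of synovial sarcoma. The fusion enters BAF complexes through its SS18 portion, and its SSX portion binds nucleosomes that carry the Polycomb mark on histone H2A. SS18 is also a subunit of GBAF, a smaller BAF form that contains BRD9 and GLTSCR1. In synovial sarcoma the fusion is known for binding genes of developmental transcription factors.

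One promoter from each class is shown to place the calls on sequence. PAX6 was called at both times, SMARCD2 at 48 h and in DMSO but not at 24 h, POU6F1 at 48 h but neither at 24 h nor in DMSO, and DGCR8 at 24 h and in DMSO but not at 48 h. Each sequence is the RefSeq promoter on GRCh38.p14, from 250 bases before to 50 bases after the gene's start, written 5′ to 3′ on the gene's strand. Capitals mark CG dinucleotides.
PAX6, chr11:31817912-31818211, minus strand: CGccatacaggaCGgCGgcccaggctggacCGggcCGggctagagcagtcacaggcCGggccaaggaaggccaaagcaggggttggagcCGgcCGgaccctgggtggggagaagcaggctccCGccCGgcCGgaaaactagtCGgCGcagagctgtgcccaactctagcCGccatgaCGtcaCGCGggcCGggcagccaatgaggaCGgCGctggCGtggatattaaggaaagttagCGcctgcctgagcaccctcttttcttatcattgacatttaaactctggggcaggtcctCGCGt
SMARCD2, chr17:63842636-63842935, minus strand: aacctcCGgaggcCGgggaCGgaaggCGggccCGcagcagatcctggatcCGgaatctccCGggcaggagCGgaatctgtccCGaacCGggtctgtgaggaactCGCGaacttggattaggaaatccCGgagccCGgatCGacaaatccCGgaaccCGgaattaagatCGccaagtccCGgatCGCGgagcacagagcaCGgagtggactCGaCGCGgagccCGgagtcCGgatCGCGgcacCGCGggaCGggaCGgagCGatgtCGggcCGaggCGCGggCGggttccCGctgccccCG
POU6F1, chr12:51218013-51218312, minus strand: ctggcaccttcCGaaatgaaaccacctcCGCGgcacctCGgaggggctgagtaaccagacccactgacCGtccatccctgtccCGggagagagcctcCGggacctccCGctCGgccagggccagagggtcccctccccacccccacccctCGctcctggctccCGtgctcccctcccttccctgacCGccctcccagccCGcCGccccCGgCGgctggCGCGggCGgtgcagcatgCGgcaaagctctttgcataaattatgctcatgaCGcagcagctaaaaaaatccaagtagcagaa
DGCR8, chr22:20079991-20080290, plus strand: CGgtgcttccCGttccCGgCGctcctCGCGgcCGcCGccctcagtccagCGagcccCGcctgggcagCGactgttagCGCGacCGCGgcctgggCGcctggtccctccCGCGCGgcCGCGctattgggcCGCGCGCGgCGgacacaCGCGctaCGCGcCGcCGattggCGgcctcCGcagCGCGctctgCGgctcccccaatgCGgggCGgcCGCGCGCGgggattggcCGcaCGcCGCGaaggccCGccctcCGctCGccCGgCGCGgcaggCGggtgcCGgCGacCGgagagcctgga

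The PAX6 region called at 48 h (chr11:31814811-31820176) covered all 300 bases of its promoter, which holds 24 CG dinucleotides. The SMARCD2 region of 48 h (chr17:63842594-63843047) also covered all 300 bases, with 41 CG dinucleotides. The POU6F1 region of 48 h (chr12:51217665-51218149) covered 137 bases of a promoter with 21 CG dinucleotides. The DGCR8 region of 24 h (chr22:20079773-20080209) covered 219 bases of a promoter with 57 CG dinucleotides. The share of C and G was 64.7% for PAX6, 68.3% for SMARCD2, 66.3% for POU6F1 and 80.3% for DGCR8. Over 15842 RefSeq promoters the median was 62.7% and the upper quartile 70.3%, which only DGCR8 exceeded.

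Most regions of each list overlapped a region of the other. Of the 48 h regions, 17181 (65.1%, 64.5% to 65.6%) overlapped a 24 h region and 9224, or 34.9% of the list (34.4% to 35.5%), were 48 h only. Of the 24 h regions, 18076 (72.8%, 72.2% to 73.3%) overlapped a 48 h region and 6770, or 27.2% (26.7% to 27.8%), were 24 h only. The 48 h list covered 33.4 Mb and the 24 h list 30.3 Mb. The 22.8 Mb covered by both were 68.3% of the 48 h bases and 75.2% of the 24 h bases. When the strongest summits had to lie within 250 bp of each other, the shared regions were no longer the majority: 65.8% of the 48 h regions were then 48 h only and 63.7% of the 24 h regions 24 h only. By overlap, the 48 h only regions outnumbered the 24 h only regions 1.36 to 1. The 48 h list was the longer one, and with both lists at the same length the counts were closer, at 8206 and 7147.

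Shared regions were often cut differently in the 2 lists. One-to-one pairs numbered 9691, and the strongest summits of a pair lay a median of 175 bp apart. In 5448 of these pairs (56.2%) the region was wider at 48 h, with a median width of 804 bp at 48 h and 726 bp at 24 h. At 48 h, 3268 regions each spanned 2 or more 24 h regions, 7053 in all, and 2673 of the 24 h regions each spanned 2 or more 48 h regions, 5583 in all. At SLC25A21 a 14.7 kb region of 48 h (chr14:36902851-36917549) lay over 7 regions of 24 h. At CADM1, which encodes a cell adhesion molecule, an 11.2 kb region of 48 h (chr11:115408142-115419358) also lay over 7. The nuclear receptor gene NR2F2 had 1 region of 12.1 kb at 48 h (chr15:96336334-96348455) over 6 regions of 24 h. The opposite pattern was found at CBFA2T3, a transcriptional corepressor gene, where a 26.6 kb region of 24 h (chr16:88888739-88915326) lay over 8 regions of 48 h. BAHCC1 had a single 24 h region over 6 regions of 48 h, and the homeobox genes HMX2 and HMX3 shared another such region over 6. In these loci the fusion was called in the same stretch at both times, and the calls were cut differently.

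The margin of the classes was narrow in places. At 48 h, 314 regions were shared only through overlaps of 50 bp or less, and 278 of the 48 h only regions lay within 50 bp of a 24 h region. At 24 h the numbers were 287 regions and 285 regions.

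Regions of 1 list were narrow and had low fold enrichment, a linear ratio of the summit over local background given by the authors, used here only within a list. The 48 h only regions had a median width of 437 bp and a median fold of 4.12, with none above 9.74. The shared regions of 48 h had a median width of 960 bp and a median fold of 5.22, and reached 49.9. The 24 h only regions had a median width of 420 bp and a median fold of 4.15, up to 9.47, against 861 bp and 4.96, up to 56.4, for the shared regions of 24 h. All 965 regions wider than 5 kb at 48 h and all 799 at 24 h were shared. Every fold of 10 or more was thus found in a region that both lists held. A single summit was present in 86.6% of the 48 h only regions and 88.8% of the 24 h only regions, against 43.9% and 48.7% of the shared regions of 48 h and 24 h.

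The share of regions found in the other list was largest in the regions of highest fold. Among 10 equal groups of 48 h regions ranked by fold, 47.0% of the lowest group were also called at 24 h, and 99.5% of the highest. Among the 24 h regions, 62.9% of the lowest group were also called at 48 h, and 99.4% of the highest. By overlap, the 2 lists differed most in the weak regions, where the 48 h list had the smaller shared share, and were alike in the strongest. Width was not held fixed in these groups, so fold apart from width was not tested.

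The strongest regions away from gene ends were shared. A region inside MCF2L, which encodes a guanine nucleotide exchange factor, spanned 11.7 kb at 48 h (chr13:113059688-113071403) with folds of 34.8 (DMSO), 56.7 (12 h), 56.4 (24 h) and 49.9 (48 h). A region inside ADAP1 (chr7:934410-938265) had folds of 42.5, 38.9, 29.7 and 30.8 in the same order. A region inside ASCC3 (chr6:100590928-100595773) had folds of 19.04, 12.6, 9.80 and 30.2. All of them were called in every fusion list.

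Of the 48 h only regions, 3526 (38.2%, 37.2% to 39.2%) overlapped a region of the DMSO list. The 24 h only regions overlapped the DMSO list almost as often, in 2482 cases (36.7%, 35.5% to 37.8%). With strongest summits within 250 bp in place of overlap, the shares were 24.7% of the 48 h only regions and 24.6% of the 24 h only regions. Shared regions were in the DMSO list far more often, at 83.9% of those of 48 h and 84.5% of those of 24 h. Neither DMSO nor 12 h held 3957 of the 48 h only regions (42.9%) and 3015 of the 24 h only regions (44.5%). Both earlier lists held 2314 of the 48 h only regions (25.1%) and 1526 of the 24 h only regions (22.5%). These 2314 regions were called in DMSO and at 12 h, not called at 24 h, and called again at 48 h.

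**Figure D1:**
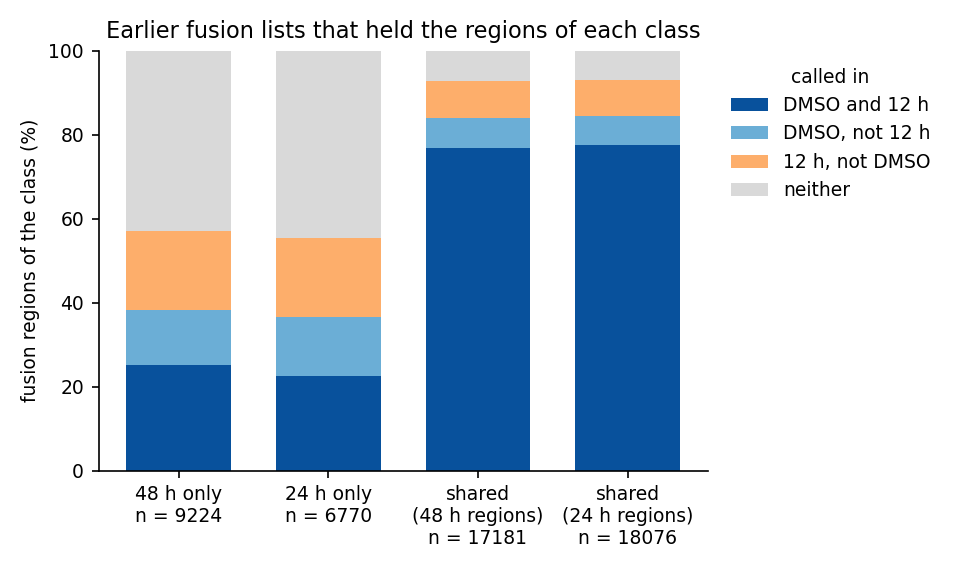
Percent of fusion regions in each class (48 h only, 24 h only, shared as counted in each list) that overlapped the DMSO list, the 12 h list, both or neither; n under each bar is the number of regions. The 48 h only and 24 h only bars are close to each other, with 42.9% and 44.5% in neither list, and the shared bars are mostly in both.

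Seen from DMSO, 13849 of its 24953 regions (55.5%) were overlapped at both 48 h and 24 h. At 48 h but not at 24 h, 3321 (13.3%, 12.9% to 13.7%) were overlapped, and at 24 h but not at 48 h, 2285 (9.16%, 8.80% to 9.52%). Neither time overlapped 5498 (22.03%). The DMSO regions of both times had a median DMSO fold of 5.41, against 4.09 for those of 48 h alone and 4.14 for those of 24 h alone. DMSO regions met at 1 of the 2 times were thus among the weaker ones, and more of them were met at 48 h. The 48 h list was also longer, at 26405 regions against 24846, and these counts were not taken at equal length.

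Among 48 h only regions away from gene ends and in the DMSO list, the strongest lay in a stretch whose nearest gene was SOX2, 501 kb away (chr3:182215123-182216993). Its folds were 7.95 in DMSO, 5.52 at 12 h and 9.74 at 48 h. SOX2 encodes a transcription factor of neural and stem cells. The next was 23.9 kb from POLG, which encodes the mitochondrial DNA polymerase (chr15:89358694-89359487), with folds of 3.62 in DMSO, 5.02 at 12 h and 8.88 at 48 h. The third lay inside TLE4, a corepressor gene (chr9:79656036-79656871), with folds of 5.83 in DMSO, 7.09 at 12 h and 8.78 at 48 h. All of them were also called at 12 h. Of the strongest outside the DMSO list, a region in ITIH5 (chr10:7618341-7618903) was called at 48 h alone, at a fold of 8.32. A region in ELP4 (chr11:31650847-31651639) had folds of 3.25 at 12 h and 8.07 at 48 h, and one 36.7 kb from C14orf180 (chr14:104542440-104543069) had folds of 4.31 at 12 h and 7.89 at 48 h.

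Among 24 h only regions away from gene ends, the strongest lay inside MICAL3, which encodes an actin-regulating oxidoreductase (chr22:17876840-17877500). Its folds were 4.36 in DMSO, 3.62 at 12 h and 9.47 at 24 h, and the nearest 48 h region was 507 kb away. A region 4.36 kb from RAI2 (chrX:17794925-17795684) had folds of 5.70 in DMSO, 6.26 at 12 h and 9.47 at 24 h, and lay 1.17 kb from a 48 h region. A region 8.82 kb from NPIPA9 (chr16:18385664-18386084) had a fold of 8.26 at 24 h and was in no other list. NPIPA9 belongs to a family of near-identical copies, so reads there are uncertain.

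Regions of 1 list usually lay close to regions of the other. The 48 h only regions had a median gap of 1645 bp to the nearest 24 h region, and 5970 of them (64.7%) lay within 5 kb of one. The 24 h only regions had a median gap of 1259 bp to the nearest 48 h region, and 4626 of them (68.3%) lay within 5 kb. Most regions of either class thus had a region of the other time within 5 kb.

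**Figure D2:**
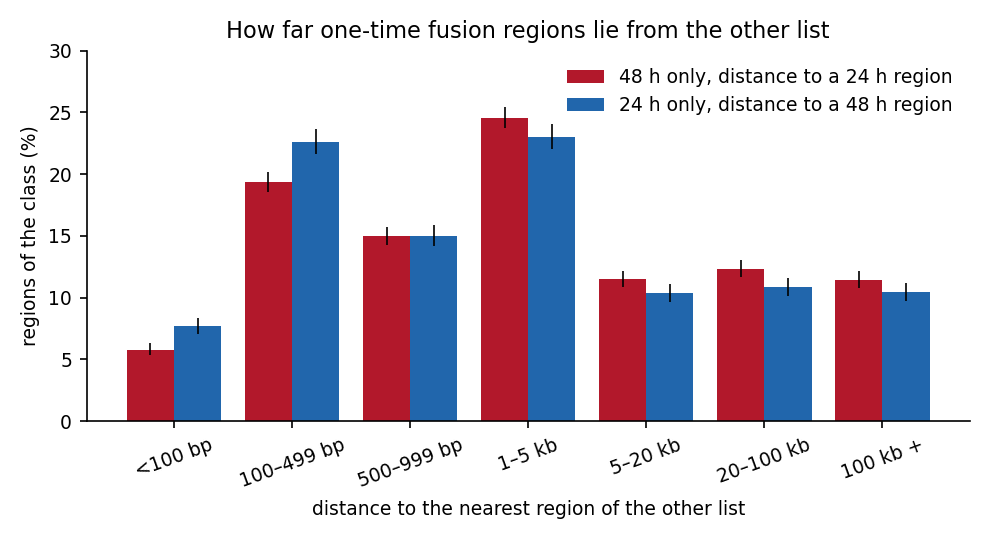
Percent of 48 h only regions (distance to the nearest 24 h region) and 24 h only regions (distance to the nearest 48 h region) by distance; lines are exact 95% intervals for counting error. The most filled class of distance was 1 to 5 kb in both, and 11.5% of 48 h only and 10.5% of 24 h only regions lay 100 kb or more away.

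Near and far regions differed in where they lay. A gene end, meaning a stretch from 1 kb before to 1 kb after the start or the end of a protein-coding span, was met by 10.5% of 48 h only regions within 5 kb of a 24 h region, and by 33.7% of those farther away. For 24 h only regions the shares were 13.7% within 5 kb and 35.7% farther away. Near 48 h only regions were in the DMSO list in 43.4% of cases and far ones in 28.8%, and for 24 h only regions the shares were 41.3% and 26.7%. The far regions thus lay more often at gene ends and less often in sites called in DMSO, at both times. Of all 48 h only regions 18.7% met a gene end, and of all 24 h only regions 20.6%, against 16.3% and 15.3% of the shared regions of 48 h and 24 h.

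Far from any region of the other time and in no other fusion list, the strongest 48 h regions were at DET1 (fold 9.51, gap 39.4 kb), near PMP22 (chr17:14926321-14926834, fold 7.52, gap 303 kb), at SPTSSA (fold 7.47, gap 85.6 kb) and at POU6F1 (fold 7.28, gap 52.4 kb). The POU6F1 region was called in each GLTSCR1 list used, and the DET1 region in that of DMSO. The PMP22 region lay 303 kb from that gene and was called for GLTSCR1 too, with folds of 6.14 (DMSO), 6.18 (24 h) and 14.3 (48 h). The strongest such 24 h regions were at HFM1 (chr1:91387216-91387519, fold 8.02, gap 403 kb) and ENDOG (fold 7.53, gap 161 kb). PMP22 and HFM1 were chosen after their values were seen.

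The balance of the classes differed with gene density. In 1-Mb stretches with under 5 protein-coding genes, 64.6% of the 48 h regions were also called at 24 h, and 77.9% of the 24 h regions were also called at 48 h. In stretches with 30 genes or more, 67.1% of the 48 h regions were also called at 24 h, and 60.2% (58.0% to 62.5%) of the 24 h regions at 48 h. The 24 h regions thus had a lower shared share with every step in density, while the 48 h regions stayed between 64.4% and 67.1%. The ratio of 48 h only to 24 h only regions was 1.73 in the gene-poorest stretches, 1.43, 1.12 and 1.03 in the next, and 0.803 in the gene-richest. By chromosome the ratio was highest on chromosome 13, at 1.71, and lowest on chromosome 22, at 0.838.

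**Figure D3:**
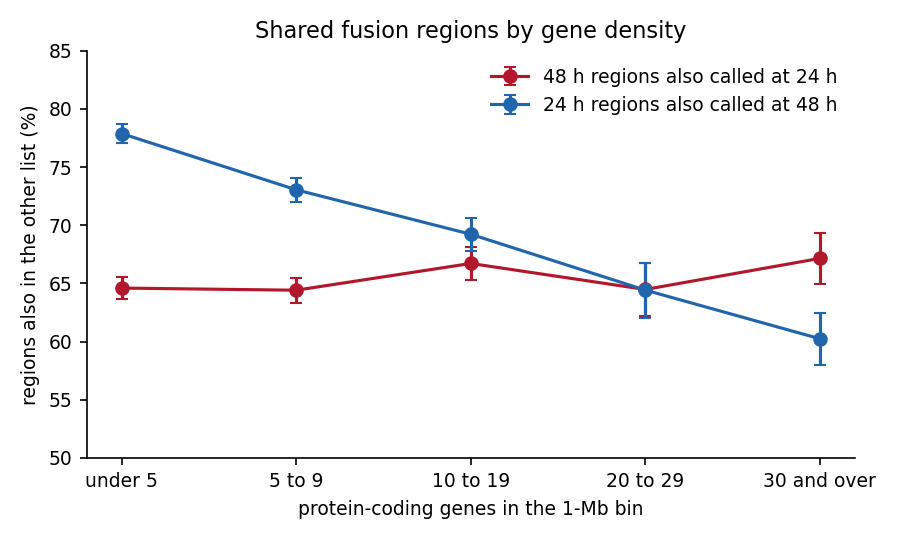
Percent of 48 h regions also called at 24 h and of 24 h regions also called at 48 h, by the number of protein-coding genes in their 1-Mb stretch; bars are exact 95% intervals for counting error and the vertical axis starts at 50%. The 24 h line falls over the range, to 60.2% in the gene-richest stretches against 77.9% in the gene-poorest, while the 48 h line stays between 64.4% and 67.1%.

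GLTSCR1 marked the GBAF complex in separate libraries that the classes did not use. Its lists held 18037 regions in DMSO, 15330 at 24 h and 13677 at 48 h. Of the 48 h only fusion regions, 19.7% overlapped GLTSCR1 in DMSO, 11.5% (10.9% to 12.2%) at 24 h and 13.0% (12.3% to 13.7%) at 48 h. Of the 24 h only fusion regions, 16.8% overlapped it in DMSO, 13.3% (12.5% to 14.1%) at 24 h and 8.52% (7.87% to 9.21%) at 48 h. Over all places, each class thus overlapped GLTSCR1 more often at its own time than the other class did. Shared regions overlapped it more often at every time, with 38.2%, 32.0% and 31.8% of those of 48 h in the DMSO, 24 h and 48 h GLTSCR1 lists. Per the labels, both antibodies share 1 input library at each time, so overlap at a time and the shared input cannot be told apart.

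**Figure D4:**
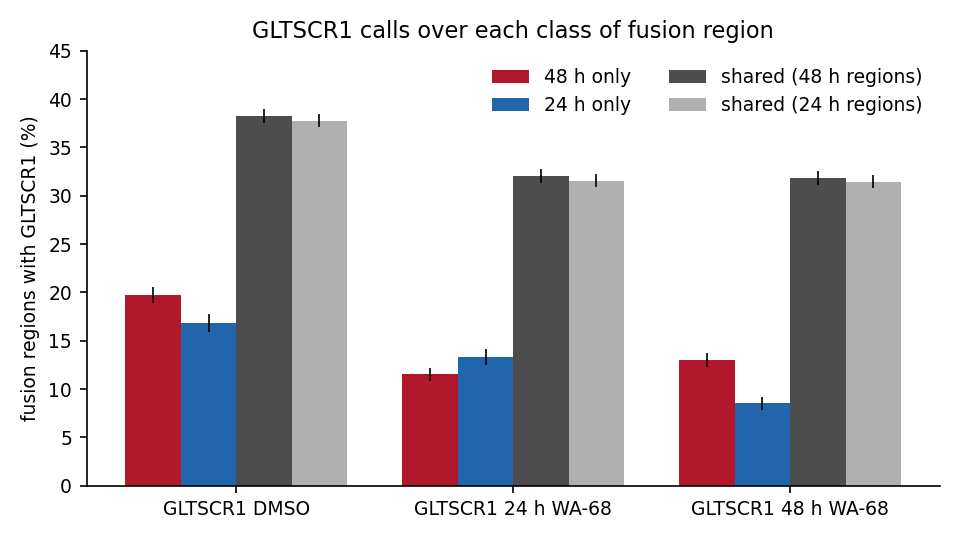
Percent of fusion regions in each class that overlapped a GLTSCR1 region in the DMSO, 24 h and 48 h GLTSCR1 lists; lines are exact 95% intervals for counting error. At 48 h the 48 h only bar (13.0%) is above the 24 h only bar (8.52%), at 24 h it is below (11.5% against 13.3%), and the shared bars are above both in each list.

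Regions of like width were closer to each other. Among regions from 300 bp to under 600 bp wide, 12.0% of the 48 h only regions and 11.7% of the shared regions of 48 h overlapped GLTSCR1 at 48 h, and 12.7% of the 24 h only regions and 15.3% of the shared regions of 24 h overlapped GLTSCR1 at 24 h. At gene ends, 22.9% of the 48 h only regions overlapped GLTSCR1 at 48 h, against 20.05% at 24 h and 46.1% in DMSO. Of the 24 h only regions at gene ends, 9.87% overlapped GLTSCR1 at 48 h, against 18.2% at 24 h and 30.9% in DMSO. At gene ends the 24 h only regions thus did not overlap GLTSCR1 of 24 h more often than the 48 h only regions did. Fusion regions with GLTSCR1 at the same time were found in the other fusion list more often. For the 48 h regions the shares were 82.0% with it and 59.3% without it, and for the 24 h regions 86.4% and 67.8%. Width was not held fixed in these shares, and shared regions were wider than regions of 1 list.

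At genes, the fusion was called at an end of 3729 of 20037 protein-coding genes (18.6%) at 48 h and of 3325 (16.6%) at 24 h. Both times held 2364 genes, through regions that need not overlap each other. At 48 h and not at 24 h it was called at 1365 genes, 36.6% of those called at 48 h. At 24 h and not at 48 h it was called at 961 genes, 28.9% of those called at 24 h. In 1325 of the 1365 and 931 of the 961 genes the strongest region of the gene overlapped no region of the other list anywhere. That region was in the DMSO list for 420 of the 1325 genes of 48 h (31.7%) and 257 of the 931 genes of 24 h (27.6%). Neighbouring genes can share a region.

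Among the genes with the highest 48 h fold that were called at both times, the first were those of 1 region over NKX6-2, INPP5A and CFAP46 (chr10:132778485-132816195). NKX6-2 encodes a homeobox factor of the nervous system, INPP5A an inositol phosphatase and CFAP46 a protein of cilia. Its folds were 14.6 (DMSO), 22.7 (12 h), 22.8 (24 h) and 24.8 (48 h). PAX6, which encodes a transcription factor of eye and brain development, had folds of 12.4, 16.0, 9.56 and 19.3 in the same order. NFATC1, a calcium-responsive transcription factor gene (chr18:79390232-79417197), had 10.4, 9.71, 15.5 and 18.2, and HMGCLL1, a lyase gene (chr6:55433361-55441411), had 18.4, 16.8, 14.1 and 18.6. The gene LOC124904607 (chr19:410241-414677) had 6.78, 9.68, 11.9 and 18.5. Every one of these genes was called in all 4 fusion lists. Folds of different lists depend on each library and are not compared.

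Genes called at 48 h and in DMSO but not at 24 h had lower folds. SMARCD2, which encodes a BAF subunit, led them with 5.04 in DMSO, 2.88 at 12 h and 7.26 at 48 h. GPC4, which encodes a cell-surface proteoglycan (chrX:133415153-133415936), had 4.70 in DMSO, 5.19 at 12 h and 7.05 at 48 h. TULP4 (chr6:158231632-158233187) had 6.31, 3.76 and 6.82 in the same order. These regions were each called at 12 h too. MMP2, a matrix metalloproteinase gene (chr16:55479210-55479920), had 6.51 in DMSO and 6.58 at 48 h, and 3.14 at 12 h in a region apart from that of 48 h. TGIF2, a homeodomain repressor gene of TGF-β signalling (chr20:36573156-36574187), had 4.99 in DMSO and 6.53 at 48 h, and ADGRD2, an adhesion receptor gene (chr9:124477353-124478338), had 5.18 and 6.54. GULP1, an engulfment adaptor gene (chr2:188291770-188292944), had 7.31 in DMSO, 4.34 at 12 h and 6.48 at 48 h, and LOC124903544 (chr15:84172420-84172851) had 3.21, 3.55 and 6.38. MMP2, TGIF2 and GULP1 were called in each of the 3 GLTSCR1 lists used.

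Genes called at 48 h and neither at 24 h nor in DMSO were led by DET1, a ubiquitin ligase component gene (chr15:88546365-88546819), at a fold of 9.51. SPTSSA, which encodes a small subunit of serine palmitoyltransferase (chr14:34460812-34461343), followed at 7.47, and POU6F1, a POU-domain transcription factor gene, at 7.28. One region over RMND1 and DCPH1 (chr6:151452391-151452704) had 6.74, and LLGL2, a cell polarity gene (chr17:75524750-75525919), had 6.58. None of these was called at 12 h either. OLFM2, an olfactomedin gene (chr19:9936236-9937476), had 6.63 at 12 h and 7.10 at 48 h, and ASAP2, which encodes a GTPase-activating protein for ARF (chr2:9207014-9207516), had 4.32 at 12 h and 6.61 at 48 h.

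Genes called at 24 h and not at 48 h were led by WWOX, an oxidoreductase gene at a fragile site (chr16:78099600-78100107), with folds of 4.43 at 12 h and 8.34 at 24 h. DGCR8, the partner of Drosha in microRNA processing, had 5.68 in DMSO, 17.4 at 12 h and 7.99 at 24 h. STON2, an endocytic adaptor gene (chr14:81435760-81436229), had 4.50 in DMSO, 3.96 at 12 h and 7.78 at 24 h. DGCR8 and STON2 were thus called in every fusion list other than that of 48 h. RGS12, a regulator of G protein signalling (chr4:3438972-3439506), had 7.78 at 24 h and was in no other list. One region over ENDOG, SPOUT1 and the read-through KYAT1-SPOUT1 (chr9:128818382-128818813) had 7.53 at 24 h alone, and LCN10, a lipocalin gene (chr9:136743020-136743473), had 7.29 at 24 h alone.

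The genes of the complex itself were also examined. BRD9 was called at both times, with folds of 2.81 (DMSO), 4.50 (12 h), 3.25 (24 h) and 4.80 (48 h), but through a region at chr5:892976-893330 at 48 h and another at chr5:892298-892799 at 24 h that did not overlap. SS18 was called at 5.90 in DMSO and 4.50 at 12 h and at neither 24 h nor 48 h. BICRA, which encodes GLTSCR1, and the SSX genes, which are near-identical copies with uncertain reads, were called in none of the fusion lists. The fusion was thus called at ends of BRD9 and not at those of BICRA.

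Genes of 14 lists, 495 in all, were then read against the shares of all genes, 36.6% of the 48 h genes not called at 24 h and 28.9% of the 24 h genes not called at 48 h. The synovial sarcoma, HOX and other developmental lists were below both shares, with at most 3.33% and 5%. The cell cycle, BAF, Polycomb and ribosomal lists had 38.5%, 44.4%, 46.7% and 60% of their 48 h genes uncalled at 24 h, and 11.1%, 37.5%, 27.3% and 42.9% of their 24 h genes uncalled at 48 h. Median 48 h folds were 7.19, 7.50 and 6.66 in the synovial sarcoma, HOX and other developmental lists, 4.598, 4.66, 4.38 and 3.74 in the cell cycle, BAF, Polycomb and ribosomal lists, and 4.80 over all called genes. The synovial sarcoma genes, which stand in for a check of the cell type because peak lists measure no expression, were called at 19 of 22 at 48 h and at 20 at 24 h. No gene of this list was called at 48 h alone, and 1 was called at 24 h alone, EFNB3, a membrane-bound ephrin gene, with folds of 6.24 at 12 h and 4.23 at 24 h. The homeobox gene MNX1 had the highest 48 h fold of the list, with 14.3 (DMSO), 11.1 (12 h), 9.80 (24 h) and 14.9 (48 h). The zinc-finger gene ZIC5 had 14.9, 14.05, 9.22 and 14.5 in the same order, and UNCX had 10.8, 13.5, 12.2 and 12.6. The fusion was thus called at most of these genes in every list.

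HOX genes, the clustered homeobox genes of body patterning, were called at 36 of 39 at 48 h, through 28 regions, and at 35 at 24 h, through 30. HOXD1 was the 1 gene called at 48 h and not at 24 h, with folds of 4.05 in DMSO, 4.86 at 12 h and 6.14 at 48 h, and none was called at 24 h alone. HOXB1, HOXB13 and HOXD4 were called at neither time. HOXA3, HOXA6, HOXA7, HOXA9 and HOXA10 shared 1 region of 48 h with a fold of 17.6. The other developmental transcription factors were called at 60 of 74 at 48 h and at 60 at 24 h, with 58 called at both. DLX5, a homeobox gene of limb and bone, was called at 48 h (5.08) and in DMSO (3.46) but not at 24 h. The DLX5 region of 48 h overlapped no DMSO region. SNAI2, a gene of mesenchymal cells, was called at 48 h (3.02) and in DMSO (4.88) but not at 24 h. The homeobox gene EN1 was called at 24 h (6.33) and in DMSO (5.45) but not at 48 h, and so was the forkhead gene FOXA2, at 5.60 at 24 h and 3.37 in DMSO. IRX4 and NKX2-2 were called in all 4 lists, with 48 h folds of 15.9 and 15.5.

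**Figure D5:**
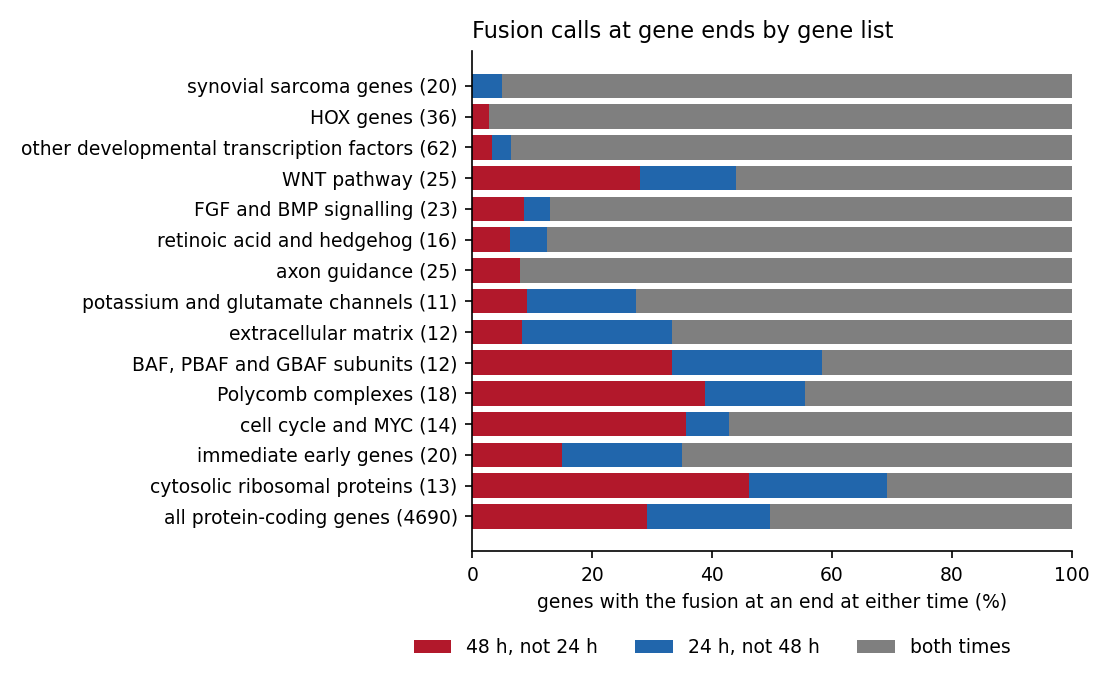
Genes called at an end at either time, by list, split into those called at 48 h and not at 24 h, at 24 h and not at 48 h, and at both times, in percent; the number of genes called at either time is in brackets. HOX, synovial sarcoma and other developmental genes were called at both times in nearly all cases, and BAF, Polycomb, cell cycle and ribosomal genes more often at 1 time, like all protein-coding genes. Regions of a gene called at both times need not overlap each other.

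WNT pathway genes were called at 21 of 37 at 48 h and at 18 at 24 h, with 7 at 48 h and not at 24 h, and 4 at 24 h and not at 48 h. The 7 were 33.3% of the list's 48 h genes, against 36.6% over all genes. The 4 were 22.2% of its 24 h genes, against 28.9% over all genes. Calls at 1 time were thus not more frequent in this list than over all genes. The ligand gene WNT6 was called at 48 h (5.65), in DMSO (4.88) and at 12 h (4.91), and the transcription factor gene LEF1 at 48 h (4.74), in DMSO (4.29) and at 12 h (4.29). The inhibitor gene SFRP5 was called at 48 h (5.05) and at 12 h (3.71), and WNT10B at 48 h (4.85) and in DMSO (3.46). The WNT10B region of 48 h overlapped a 24 h region outside the gene's windows. The receptor genes FZD3 and FZD5 and the ligand gene WNT8B had 48 h folds of 3.65, 3.39 and 3.47 and were not called at 24 h. WNT4, WNT3, DKK3 and SFRP1 were called at 24 h and not at 48 h, at 4.62, 3.92, 4.64 and 4.65. WNT16, WNT7B and the feedback gene AXIN2 were called in all 4 lists, with 48 h folds of 13.2, 9.95 and 7.86.

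FGF and BMP genes were called at 22 of 39 at 48 h and at 21 at 24 h. The growth factor gene FGF20 had folds of 16.2 in DMSO, 8.94 at 12 h and 12.8 at 48 h and no region in its windows at 24 h, although its 48 h region overlapped a 24 h region outside them. The receptor gene FGFR1 was called at 48 h (4.20) but not at 24 h, and BMP6 at 24 h (4.02) but not at 48 h. BMP3 was called in all 4 lists, with folds of 17.8 (DMSO), 15.8 (12 h), 4.82 (24 h) and 16.7 (48 h). Retinoic acid and hedgehog genes were called at 15 of 25 at 48 h and at 15 at 24 h, with 14 called at both, the receptor gene RARB at 48 h alone (5.30) and the ligand gene DHH at 24 h (6.15) but not at 48 h. Axon guidance genes were called at 25 of 37 at 48 h and at 23 at 24 h, and EFNB1 (5.18) and NTNG1 (4.95) were called at 48 h but not at 24 h. Potassium and glutamate channel genes were called at 9 of 37 at 48 h and at 10 at 24 h, with KCNC1 (5.18) at 48 h but not at 24 h, and KCNMA1 (4.72) and GRIA4 (5.23) at 24 h but not at 48 h. Extracellular matrix genes were called at 9 of 38 at 48 h and at 11 at 24 h, with COL12A1 (4.48) at 48 h but not at 24 h, and COL2A1, FBN1 and LAMA1 (3.03, 3.33 and 5.59) at 24 h but not at 48 h. The COL2A1 region of 24 h overlapped a 48 h region outside the gene's windows. In these lists the counts of 48 h and 24 h differed by at most 2 genes. Over all protein-coding genes, 18.6% were called at 48 h and 16.6% at 24 h. In the order given, 9.09%, 6.67%, 8%, 11.1% and 11.1% of the lists' 48 h genes were not called at 24 h, against 36.6% over all genes. For their 24 h genes, 4.76%, 6.67%, 0%, 20% and 27.3% were not called at 48 h, against 28.9% over all genes.

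BAF, PBAF and GBAF subunit genes were called at 9 of 33 at 48 h and at 8 at 24 h. Of the 9, 4 were not called at 24 h, and of the 8, 3 were not called at 48 h. Over all genes, 36.6% of 48 h genes were not called at 24 h, and 28.9% of 24 h genes were not called at 48 h. SMARCD2 was followed by BICRAL, the paralogue of BICRA (4.26 at 48 h and 4.29 in DMSO), the ATPase gene SMARCA2 (3.54 at 48 h and 3.32 in DMSO) and the core subunit gene SMARCC2 (3.37 at 48 h and 2.996 at 12 h). SMARCB1, PHF10 and BCL7C were called at 24 h alone, at 4.65, 3.39 and 3.14. Genes of the Polycomb complexes, which write the histone marks of silent developmental genes, were called at 15 of 35 at 48 h and at 11 at 24 h. Of the 15, 7 were not called at 24 h: BCOR (7.66), EED (6.28), PHF1 (4.31), EZH1 (4.25), RNF2 (3.99), RING1 (3.39) and the methyltransferase gene EZH2 (3.27). The BCOR region of 48 h overlapped a 24 h region outside the gene's windows. BCOR, RNF2, RING1 and EZH2 were in the DMSO list too. MTF2, RBBP7 and BCORL1 were called at 24 h and not at 48 h, at 3.75, 4.86 and 5.47. BMI1 and CBX8 were called in all 4 lists, with 48 h folds of 11.1 and 8.85.

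Cell cycle and MYC genes were called at 13 of 28 at 48 h and at 9 at 24 h. Of the 13, 38.5% were not called at 24 h, against 36.6% over all genes. Of the 9, 11.1% were not called at 48 h, against 28.9% over all genes. The cyclin gene CCND1 (5.92), the inhibitor gene CDKN2B (4.54) and E2F3, E2F1 and RB1 (4.12, 3.89 and 3.52) were called at 48 h and not at 24 h, and MYCL (4.35) at 24 h and not at 48 h. MYC was called in all 4 lists, with folds of 4.59 (DMSO), 4.97 (12 h), 4.08 (24 h) and 4.598 (48 h). Immediate early genes, which respond fast to stimuli, were called at 16 of 24 at 48 h and at 17 at 24 h. Of the 16, 18.75% were not called at 24 h, and of the 17, 23.5% were not called at 48 h. Both shares were below those of all genes. KLF2, NR4A2 and IER2 were called at 48 h and not at 24 h (5.45, 5.30 and 3.39), and EGR3, FOSL2, EGR1 and FOSB at 24 h and not at 48 h (5.12, 4.66, 4.44 and 3.94). The FOSL2 region of 24 h likewise overlapped a 48 h region outside the gene's windows. Genes of cytosolic ribosomal proteins were called at 10 of 27 at 48 h and at 7 at 24 h, with 6 of the 10 not called at 24 h (48 h folds of 2.66 for RPL37 to 4.59 for RPL27). RPL11, RPL23 and RPL8 were called at 24 h and not at 48 h, at 6.09, 5.77 and 3.16. Ribosomal protein genes have many near-identical pseudogenes, so reads at them are uncertain.

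Among all genes with a 48 h fold of 4 to 5, 49.6% (555 of 1119) were not called at 24 h, and among those of 8 and over 0.773% (3 of 388). Calls at 1 time were thus mostly at genes of low fold. Lists were also pooled within bands of 48 h fold. The pools were the lists with the lowest and the highest shares above, so a difference between them was built in. At 4 to 5, genes not called at 24 h were 0 of 14 in the synovial sarcoma, HOX and other developmental lists. They were 6 of 14 (42.9%) in the cell cycle, BAF, Polycomb and ribosomal lists, below the 49.6% of all genes. Under 4 the counts were 1 of 5 and 12 of 16, against 550 of 929 over all genes. At 5 to 6 they were 1 of 16 and 1 of 4, against 191 of 722. At 6 to 8 they were 1 of 40 and 3 of 8, against 66 of 571. At 8 and over they were 0 of 40 and 0 of 5. Few genes of the lists stood in each band.

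Promoter sequence was compared among promoters met by a fusion region, over the 15842 of 20037 genes with a RefSeq sequence. That is 79.1% of the genes, under the 80% needed, so the values are void as a statement about all genes and hold only for the promoters in the table. Median GC content was 69.0% in 909 promoters met at 48 h and not at 24 h, 69.7% in 520 met at 24 h and not at 48 h, and 70.7% in 884 met at both. It was 62.7% in all 15842. The median number of CG dinucleotides was 30, 29.5 and 30 in the same 3 classes, against 22 in all. The GC box GGGCGG was found, on either strand, in 76.7% of promoters of 48 h and not 24 h, 78.8% of those of 24 h and not 48 h and 77.7% of those of both, against 58.5% of all. The AP-1 site TGANTCA was found in 3.19%, 3.65% and 4.86%, against 5.75% of all, and the E-box CANNTG in 54.7%, 55.8% and 59.5%, against 64.5% of all. These matches are letters in the promoter window and not binding sites. Promoters met at either time were thus richer in C and G than all promoters, and the classes were close to each other.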

How the data were processed

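The members and gene lists were chosen with earlier results of these data known. Peak names in the deposited files show separate calling per library, and the files give for each peak a fold enrichment (a linear ratio) and −log10 p and −log10 q values from the authors' peak caller. No −log10 q was below 3 in the fusion lists. Per the submitters' processing notes, MACS2, BWA, SAMtools, Picard, deepTools, Trim Galore, cutadapt, FastQC and bcl2fastq were used, on GRCh38. For versions, order, settings and the calling control, the value is not given in the sources used here. Libraries were paired-end, from formaldehyde-crosslinked and sonicated chromatin, per the labels' protocols. Input reads were not analysed here.

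Entries with the same coordinates were joined into 1 region with the values of its strongest summit. Gene ends were windows from 1 kb before to 1 kb after the start and the end of each of 20037 protein-coding spans (RefSeq GRCh38.p14); a gene's fold is that of its strongest region, which can peak outside the window. The rule named, in each class, up to 8 genes and 3 regions away from gene ends by fold, up to 4 members of each list by 48 h fold, every member called at 1 time, and SS18, the SSX genes, BICRA and BRD9; some genes it picks are not reported here. Loci cut differently between lists and 1-Mb stretches were chosen after their values were seen. Overlaps were checked on simulated data. Python 3.11.15, pandas 2.3.3, numpy 2.4.6, SciPy 1.17.1 and matplotlib 3.10.9 were used. Alternatives were other overlap rules, q thresholds, list lengths, merging, contigs and windows.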

Additional observations from a re-analysis of the deposited data

How the results depend on the processing

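Of 79 values recomputed under the alternatives, 60 were classed as close to the main value and 19 as moved. A count was classed by its size and not by its share, and the margin was wide. With summits within 250 bp, 48 h only regions in the DMSO list were classed as close, at 4292 against 3526. Their share was 24.7% against 38.2%. The 24 h only count was classed as close at 8619 with an overlap of 50% of the shorter peak, against 6770. When strongest summits had to lie within 250 bp, 17380 regions (65.8%) were 48 h only, 4292 of them (24.7%) in the DMSO list, and 15821 (63.7%) were 24 h only, 3897 of them (24.6%) in the DMSO list. Then 9025 of the 24 h regions (36.3%) were also called at 48 h, so that shared regions became a minority. With −log10 q of at least 5 asked of the classed list alone, 6009 regions were 48 h only, 4262 were 24 h only, and 636 genes were called at 24 h and not at 48 h. GLTSCR1 at 48 h on 48 h only regions moved to 10.9% with an overlap of 50% of the shorter peak, 10.8% with summits, 14.3% with q of at least 5 in the classed list and 14.6% with peaks within 500 bp merged. GLTSCR1 at 24 h on 24 h only regions moved to 10.8% with the 50% overlap and also with summits, 11.9% with q of at least 5 in every list and 14.7% with merging. The gene-end share of 48 h only regions moved to 21.3% with merging, 14.8% with windows of 500 bp, 26.0% with 3 kb and 15.5% with 1 kb around start sites. The 50% overlap and summit rules were applied to the GLTSCR1 and DMSO matches too. Gene-end windows of 500 bp lie inside those of 1 kb and these inside those of 3 kb, so this share can only rise with window size. The cause of the other shifts was not tested. With both lists at the same length, 8206 regions were 48 h only and 7147 were 24 h only. No paired analysis was possible because each group held 1 library. Leaving out a library was not possible for the same reason. Depth is unknown, so regions near the threshold cannot be told apart from regions missed.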

Other observations

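Some 1-Mb stretches held many regions of 1 class. The stretch of chromosome 2 from 176 to 177 Mb, which holds the HOXD cluster, had 33 regions of 48 h only and 9 of 24 h only. It also held 52 shared regions of 48 h and 53 of 24 h. Of the HOX genes, HOXD1 alone was called at 48 h and not at 24 h. On chromosome 7, the stretch from 83 to 84 Mb had 24 of 48 h only and 3 of 24 h only, and that from 26 to 27 Mb had 27 and 8. On chromosome 20, 61 to 62 Mb held 49 of 48 h only and 26 of 24 h only. The opposite was seen at the tip of chromosome 11, where 0 to 1 Mb held 7 of 48 h only and 26 of 24 h only, at 64 to 65 Mb of that chromosome, with 8 and 26, and at 1 to 2 Mb of chromosome 19, with 20 and 38. These stretches were picked for their difference, with no test.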
